A study of Mus musculus with 2 samples.

Results

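Enzymes and transporters of glycolysis, the pentose phosphate path and the citrate cycle were examined in sorted CD4+ T cells of DEREG mice. All probe sets that the platform annotation pairs with exactly 1 of 44 listed gene symbols were taken, in 3 groups: 20 genes of glucose uptake and glycolysis, 6 of the pentose phosphate path, and 18 of pyruvate dehydrogenase and the citrate cycle. This gave 99 of the 45101 probe sets on the array and 41 of the 18194 genes with such a probe set. Gpi1, Eno1 and G6pdx had no probe set paired with them alone and are not analysed here.

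The study set CD4+GFP+FoxP3+ cells (called GFP-positive) against CD4+GFPnegFoxP3neg cells (GFP-negative). Both came from DEREG mice, in which a transgene places GFP under Foxp3 promoter sequence, so that GFP stands in for Foxp3 in the sort. Negative selection for CD4+ T cells was followed by a sort on GFP, with a stated purity above 99%. Each population was hybridised to 1 Affymetrix Mouse Genome 430 array from 6 µg of total RNA. Neither the organ nor the age, sex, number or treatment of the mice is given in the sources used here. With 1 array per population there is no replicate error, no test was possible, and every difference is between these 2 arrays.

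Glycolysis splits glucose into pyruvate in the cytosol, and lactate dehydrogenase turns pyruvate into lactate and back. The pentose phosphate path branches off early and yields NADPH and ribose phosphate. Pyruvate dehydrogenase carries pyruvate into the mitochondrial citrate cycle, and its kinases switch it off. Activated effector T cells are known for high glycolysis, whereas regulatory T cells are known to lean more on mitochondrial oxidation, and Foxp3 has been linked to that balance.

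Values are MAS5 signals on a linear scale, as scaled by the authors. A gene is represented by its brightest probe set. Signals under a floor of 68.95, the 90th percentile of genes restricted to other tissues, were set to that value ahead of the log2 step. A gene was counted where the geometric mean of its 2 signals reached the floor, which held for 39 of the 41 measured members and 8480 genes in all. The members left out were Slc16a3, an exporter of lactate (29.0 in GFP-positive cells against 9.90 in GFP-negative cells), and Idh1, the cytosolic isocitrate dehydrogenase (31.4 GFP-positive, 50.1 GFP-negative). Each difference given is the log2 signal in GFP-positive cells less that in GFP-negative cells.

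Foxp3 had a signal of 504 in GFP-positive cells against 173 in GFP-negative cells, in the direction of the labels. The signal of 173 lay above the floor in cells labelled FoxP3neg. Ikzf2, Ctla4, Tnfrsf18 and Il2ra, further markers of regulatory T cells, were also above the floor on both arrays. They were 1.97-, 1.94-, 2.76- and 1.71-fold higher in GFP-positive cells, with GFP-negative signals of 2250, 1244, 506 and 362. The source of these signals in GFP-negative cells was not tested. All 7 measured CD4+ T cell markers were above the floor on both arrays. Of these 7, 6 were lower in GFP-positive cells, with Cd4 1.62-fold, Cd3e 1.59-fold and Cd28 1.53-fold lower, and their summed signal was 15187 in GFP-positive cells against 17059 in GFP-negative cells. Their part in the lower signals of the members was not tested. Few markers of other cell types reached the floor. The summed signals of 6 B cell markers were 466 in GFP-positive cells against 471 in GFP-negative cells, and those of 8 myeloid markers 309 in GFP-positive against 303 in GFP-negative cells. Those of 4 CD8 and NK markers were 198 in GFP-positive against 226 in GFP-negative cells, and those of 5 erythroid and platelet markers 221 in GFP-positive against 267 in GFP-negative cells. In each array 2 B cell markers lay above the floor, and they went opposite ways: Cd79b had 222 in GFP-positive cells against 70.8 in GFP-negative cells, and Cd22 98.3 in GFP-positive cells against 235 in GFP-negative cells. In such bulk samples fewer cells of a type and less RNA per cell cannot be told apart. The floor was passed by 39.1% of all probe sets in GFP-positive cells, against 36.7% in GFP-negative cells. The 3′ to 5′ signal ratio of Actb, a measure of RNA quality that increases with degradation, was 5.30 in GFP-positive cells against 3.57 in GFP-negative cells.

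Hypoxia-inducible factor and Myc are textbook regulators of glycolytic genes, so the promoters of the members were searched for their core motifs. RefSeq promoters (GRCm38.p6, 250 bases before to 50 after each start of a gene) were found for 42 of the 44 listed genes. These had 61 promoters, and a gene was taken to hold a motif if any of its promoters did. On either strand, ACGTG or GCGTG, the hypoxia response core, stood in 34 of these 42 genes (81.0%), against 70.1% of the 6971 counted genes with a promoter and 46.7% of all 27025 genes in the table. The form ACGTG alone was in 13 of 19 glycolysis genes (68.4%), 1 of 6 pentose phosphate genes and 4 of 17 genes of pyruvate dehydrogenase and the citrate cycle, against 30.8% of the counted genes. The E-box CACGTG, which contains ACGTG on both strands, was in 4 of 42 (9.52%), against 12.5%. By promoter, ACGTG or GCGTG was in 77.0% of the 61 promoters of members, against 64.2% of the 8879 of counted genes. On the same count ACGTG was in 41.0% against 26.8%, and CACGTG in 9.84% against 10.6%. The 42 genes include Gpi1, Eno1 and G6pdx, without a probe set, and Slc16a3 and Idh1, which were not counted. The sets compared are thus not chosen alike. These shares describe sequence and not binding. Shown here are the promoters of the members that differed by at least 1.5-fold and hold a core match, 5′ to 3′ on the gene's strand, with each ACGTG or GCGTG match of either strand in capitals. Matches of the other strand read CACGT or CACGC here, and the run CACGTG in the first promoter is an E-box.

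Slc16a1 promoter, chr3:104638414-104638713, plus strand: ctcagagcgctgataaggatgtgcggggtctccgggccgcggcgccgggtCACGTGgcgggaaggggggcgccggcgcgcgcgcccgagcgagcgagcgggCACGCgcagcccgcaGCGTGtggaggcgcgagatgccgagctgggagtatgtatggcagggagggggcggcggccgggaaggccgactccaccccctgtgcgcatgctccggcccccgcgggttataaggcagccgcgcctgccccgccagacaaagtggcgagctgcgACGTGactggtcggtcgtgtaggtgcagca

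Ldhb promoter, chr6:142507908-142508207, minus strand: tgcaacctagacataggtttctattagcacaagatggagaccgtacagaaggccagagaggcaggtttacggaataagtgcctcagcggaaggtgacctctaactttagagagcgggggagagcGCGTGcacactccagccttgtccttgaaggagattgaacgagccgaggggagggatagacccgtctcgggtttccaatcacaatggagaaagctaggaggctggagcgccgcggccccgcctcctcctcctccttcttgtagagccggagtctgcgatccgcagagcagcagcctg

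Pdk1 promoter, chr2:71872974-71873273, plus strand: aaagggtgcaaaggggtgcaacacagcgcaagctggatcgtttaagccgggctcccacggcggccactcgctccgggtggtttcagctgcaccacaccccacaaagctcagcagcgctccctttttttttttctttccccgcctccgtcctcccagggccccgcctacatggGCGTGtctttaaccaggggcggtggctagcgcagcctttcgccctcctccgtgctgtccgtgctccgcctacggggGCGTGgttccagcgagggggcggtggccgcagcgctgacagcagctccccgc

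The Slc16a1 promoter held 5 matches, of which a pair overlap in the E-box, the Ldhb promoter 1 and this Pdk1 promoter 2, while a further Pdk1 start in the table had 0. Slc16a1 and Ldhb had higher and Pdk1 lower signals in GFP-positive cells. As 34 of the 42 genes with a promoter hold a match, these genes cannot show whether a match goes with direction. Dld and Dlat, the other members past 1.5-fold, held 0 matches.

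Transcripts of most of these enzymes were slightly lower in GFP-positive cells. Of the 39 counted members 27 were lower and 12 higher (69.2% lower), against 54.1% lower over all 8480 genes, and the median difference was -0.11 log2 against -0.04 over all genes. Large differences were rare. At least 1.5-fold higher were Ldhb, Slc16a1 and Dld, 3 members or 7.69%, against 8.12% of all genes, and at least 1.5-fold lower were Pdk1 and Dlat, 2 members or 5.13%, against 8.10%. No member reached 2-fold in either direction, a size passed upwards by 1.71% and downwards by 1.73% of all genes. The shares past either fold were thus not above those of all genes.

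**Figure D1:**
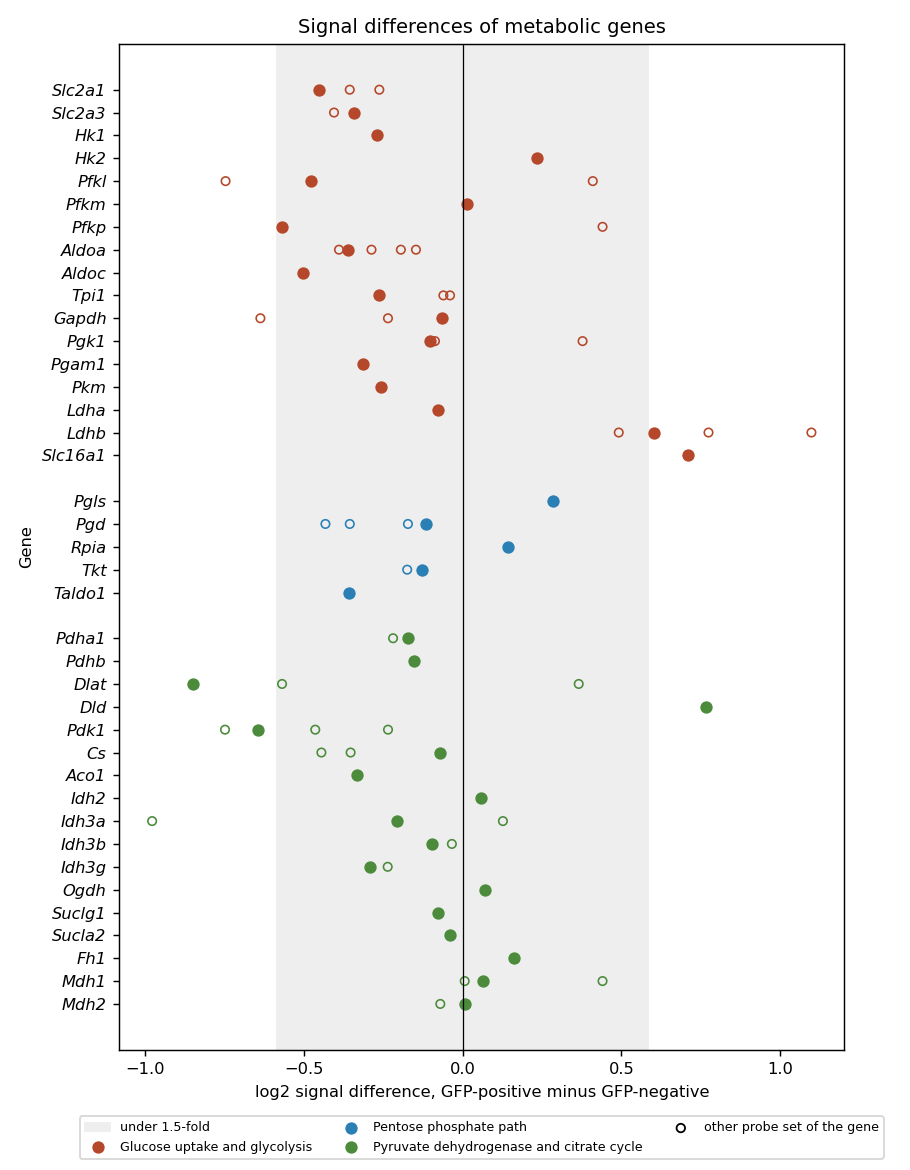
Log2 signal difference (x axis) of each counted gene (y axis), GFP-positive minus GFP-negative, with 1 array per population. Filled points are the brightest probe set, open points the gene's other probe sets above the floor, and the grey band marks differences under 1.5-fold. Most filled points of glycolysis lie left of 0, while Ldhb, Slc16a1 and Dld lie right of the band.

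In glycolysis the 17 counted members had a median of -0.26 log2, or 1.20-fold lower, with 13 lower and 4 higher (Hk2, Pfkm, Ldhb and Slc16a1). The 5 counted pentose phosphate genes had a median of -0.11 with 3 lower and Pgls and Rpia higher, and the 17 of pyruvate dehydrogenase and the citrate cycle a median of -0.08 with 11 lower. No test separates these groups. Bright genes leaned lower in general: of 23 members with a mean signal of 1000 or more, 19 were lower (82.6%), against 59.7% of 1499 such genes in all. Of the 16 dimmer members 8 were lower, against 52.9% of 6981 genes.

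**Figure D2:**
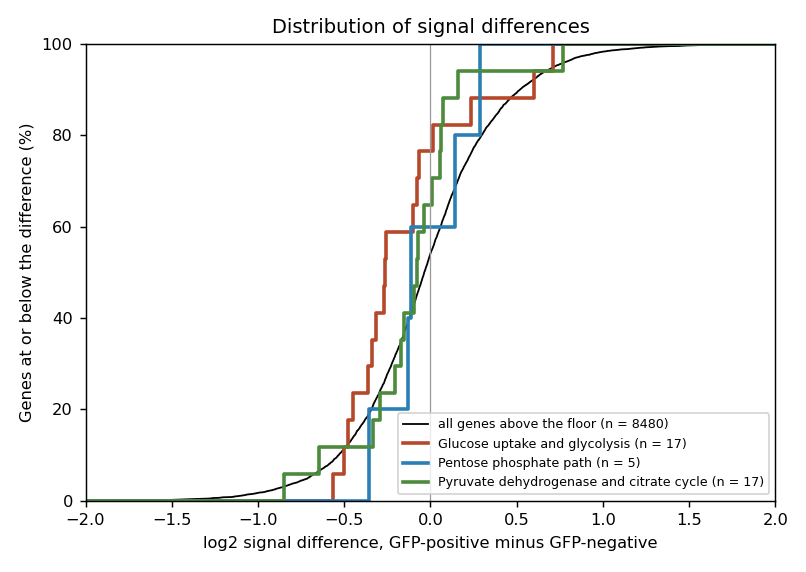
Cumulative share of genes (y axis, %) at or below each log2 signal difference, GFP-positive minus GFP-negative (x axis), for the 3 groups and for all 8480 counted genes. The glycolysis curve lies left of the curve of all genes over most of its course, with its median at -0.26 against -0.04.

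Glucose enters T cells through Slc2a1 (GLUT1), the carrier that rises with activation, and Slc2a3 (GLUT3), a carrier of high affinity. Slc2a1 had signals of 411 in GFP-positive cells against 562 in GFP-negative cells, a difference of -0.45 log2 or 1.37-fold lower. All 3 of its probe sets were lower, between -0.45 and -0.26 log2. Slc2a3 (338 GFP-positive, 428 GFP-negative) was 1.27-fold lower, with both counted probe sets on the same side. Both carry the suffix _s or _x, which marks possible matches to several transcripts. The other Slc2a3 probe sets were under the floor on both arrays. Both glucose carriers thus had less transcript signal in GFP-positive cells, for Slc2a3 on probe sets with such suffixes alone.

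Hexokinase traps glucose as glucose 6-phosphate. Hk1, the constitutive form, had signals of 327 in GFP-positive cells against 395 in GFP-negative cells (-0.27 log2). Hk2, the inducible form, went the other way, with 225 in GFP-positive against 191 in GFP-negative cells (0.24 log2). Each rests on 1 counted probe set.

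Phosphofructokinase, the committed step, is a tetramer of liver, muscle and platelet type subunits. Pfkp, the platelet type, had signals of 2011 in GFP-positive cells against 2978 in GFP-negative cells, 1.48-fold lower and just inside the 1.5-fold band. A much dimmer Pfkp probe set went the other way (163 GFP-positive, 120.4 GFP-negative, 0.44 log2). Pfkl, the liver type, was 1.39-fold lower (129.8 GFP-positive, 181 GFP-negative), with its probe sets split between -0.75 and 0.41 log2. Pfkm, the muscle type, was level, with 206 in GFP-positive against 204 in GFP-negative cells. The lower Pfkp and Pfkl signals therefore depend on which probe set is read.

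From aldolase to pyruvate kinase every measured member was lower on its brightest probe set, by small amounts. Aldoa, the main aldolase of most cells, had signals of 2426 in GFP-positive cells against 3115 in GFP-negative cells, 1.28-fold lower, and all 5 of its probe sets were lower (-0.39 to -0.15 log2). Aldoc, the brain type, was 1.42-fold lower at signals close to the floor (78.0 GFP-positive, 110.4 GFP-negative). Tpi1, triose phosphate isomerase, was 1.20-fold lower (1494 GFP-positive, 1795 GFP-negative), with all 3 probe sets on that side. Pgam1, phosphoglycerate mutase, was 1.24-fold lower (478 GFP-positive, 595 GFP-negative), and Pkm, pyruvate kinase, 1.19-fold lower (1578 GFP-positive, 1883 GFP-negative), each on a single probe set.

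Among the brightest glycolytic genes the differences were small. Gapdh, glyceraldehyde 3-phosphate dehydrogenase, is measured here by the array's 3 control probe sets alone, which lie along its transcript. The 3′ set had signals of 8917 in GFP-positive cells against 9327 in GFP-negative cells (-0.06 log2), the middle set 3864 in GFP-positive against 4546 in GFP-negative cells (-0.23), and the 5′ set 962 in GFP-positive against 1495 in GFP-negative cells (-0.64). The gap thus widened towards the 5′ end, and the 3′ to 5′ ratio was 9.27 in GFP-positive cells against 6.24 in GFP-negative cells. The part of this RNA quality measure in the lower signals of the other members was not tested. Pgk1, phosphoglycerate kinase, had signals of 5970.0 in GFP-positive against 6410.2 in GFP-negative cells (-0.10 log2), with another of its 3 probe sets higher (4137 GFP-positive, 3184 GFP-negative).

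**Figure D3:**
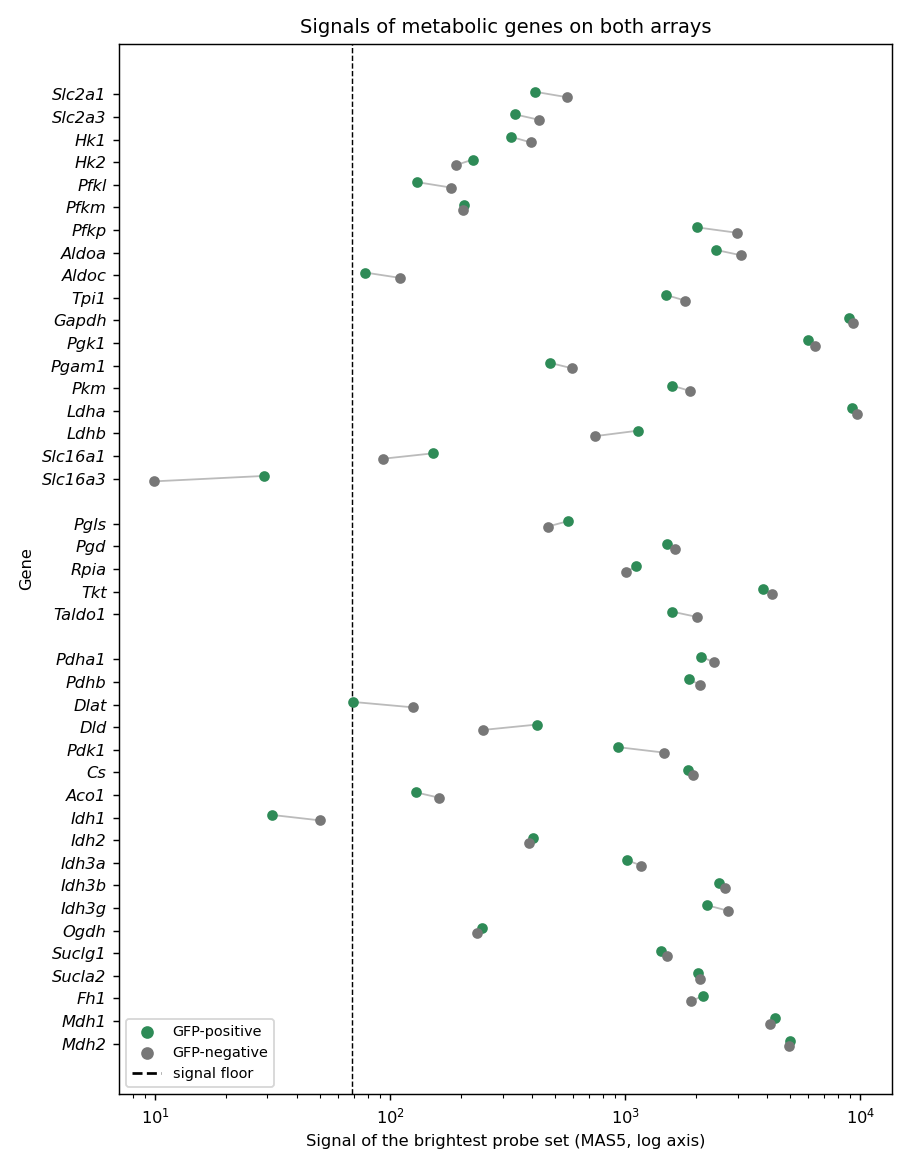
Signal of the brightest probe set of the 41 measured members (y axis) on a log axis, with GFP-positive in green and GFP-negative in grey and the floor as a dashed line. The points of most genes nearly coincide, and only Slc16a3 and Idh1 have both signals under the floor.

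Among members with several counted probe sets, the largest difference in favour of GFP-positive cells was at lactate dehydrogenase. Ldha and Ldhb encode the A and B subunits, of which A favours lactate formation and B the oxidation of lactate to pyruvate. Ldha was nearly level, at 9182 in GFP-positive cells against 9696 in GFP-negative cells (-0.08 log2). Ldhb had 1126 in GFP-positive cells against 742 in GFP-negative cells on its brightest probe set, 1.52-fold or 0.60 log2 higher. Its other probe sets read 880 GFP-positive against 515 GFP-negative, 796 GFP-positive against 372 GFP-negative, and 777 GFP-positive against 552 GFP-negative. All 4 were higher in GFP-positive cells, by 0.74 ± 0.26 log2 on average (SD over 4 probe sets of the same RNA, not over samples). Each of the 4 carries the suffix _x or _a, so Ldhb has no value when suffixed probe sets are left out. Slc16a1 (MCT1), which carries lactate and pyruvate across the membrane, was 1.64-fold higher at low signals (151.9 GFP-positive, 92.9 GFP-negative), and its only other probe set was below the floor.

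In the pentose phosphate path the differences were small and of both signs. Pgd, which makes NADPH in the oxidative branch, had signals of 1508 in GFP-positive cells against 1631 in GFP-negative cells, and all 4 of its probe sets were lower (-0.43 to -0.11 log2). Pgls, the lactonase of that branch, was 1.22-fold higher (569.8 GFP-positive, 468 GFP-negative). In the branch without oxidation, Taldo1, transaldolase, was 1.28-fold lower (1574 GFP-positive, 2016 GFP-negative). Tkt, transketolase, was 1.09-fold lower (3853 GFP-positive, 4212 GFP-negative), with both counted probe sets on that side. Rpia, ribose 5-phosphate isomerase, was 1.10-fold higher (1114 GFP-positive, 1008 GFP-negative).

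Around pyruvate dehydrogenase members lay past 1.5-fold on both sides. Pdk1, the kinase that shuts the complex, had signals of 930.4 in GFP-positive cells against 1454 in GFP-negative cells, 1.56-fold or 0.64 log2 lower. Its other probe sets read 297 GFP-positive against 409 GFP-negative, 137 GFP-positive against 161 GFP-negative, and 89.6 GFP-positive against 150.4 GFP-negative. All 4 were lower, by -0.52 ± 0.22 log2 on average (SD over 4 probe sets of the same RNA). That average is under 1.5-fold, and the brightest probe set also missed 1.5-fold, at -0.58 log2, with quantile normalization. Dld, the E3 subunit, which also serves other dehydrogenase complexes, was 1.70-fold higher (421 GFP-positive, 247 GFP-negative) on 1 counted probe set.

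Of the catalytic subunits, Pdha1, Pdhb and Dlat were lower on their brightest probe sets, unlike the higher Dld. Pdha1 and Pdhb, the E1 alpha and beta chains, were both lower by little. Pdha1 had 2105 in GFP-positive against 2373 in GFP-negative cells (-0.17 log2), and Pdhb 1865 in GFP-positive against 2075 in GFP-negative cells (-0.15). Dlat, the E2 subunit, was 1.80-fold lower, but its signals (69.4 in GFP-positive cells against 125.0 in GFP-negative cells) began at the floor. A further Dlat probe set was higher (96.5 GFP-positive, 74.9 GFP-negative), so that its probe sets ranged from -0.85 to 0.37 log2.

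**Figure D4:**
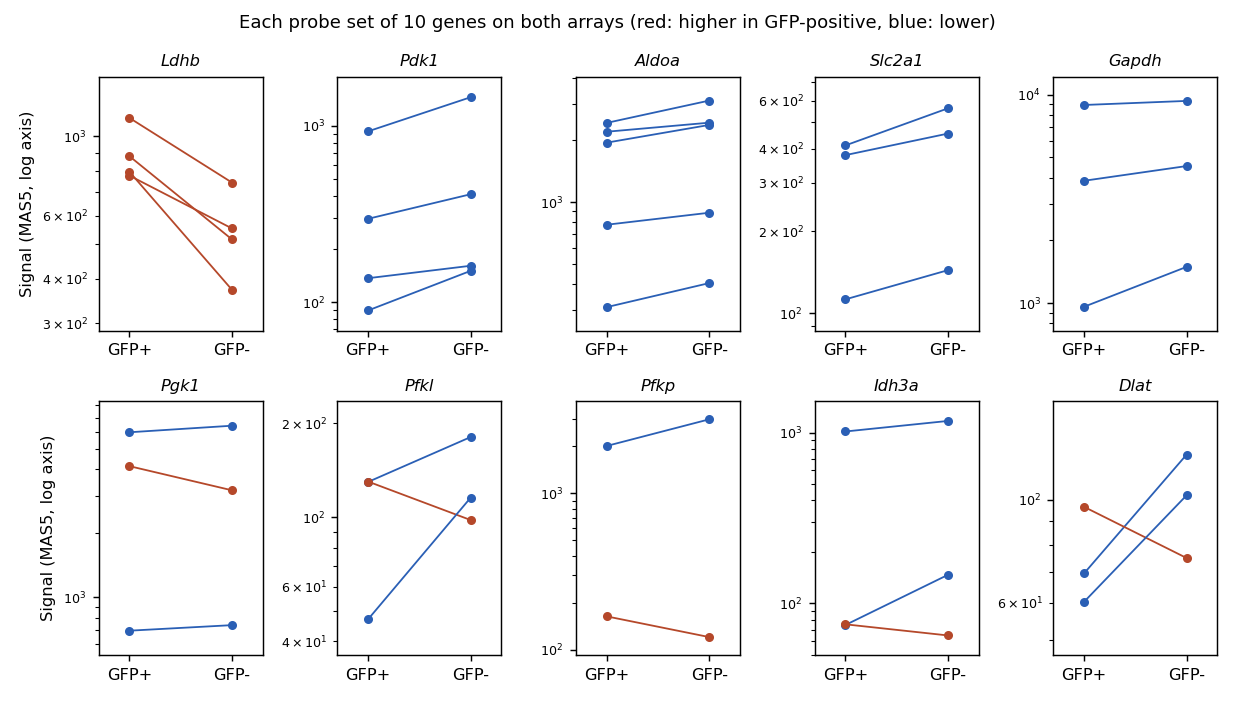
Signals on a log axis (y) of every counted probe set of 10 members, GFP-positive on the left and GFP-negative on the right of each panel, with 1 line per probe set. All 4 lines of Ldhb are higher in GFP-positive cells and all 4 of Pdk1 lower, whereas the lines of Pgk1, Pfkl, Pfkp, Idh3a and Dlat run both ways.

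The first enzymes of the citrate cycle were level or slightly lower on their brightest probe sets. Cs, citrate synthase, had signals of 1849 in GFP-positive cells against 1943 in GFP-negative cells (-0.07 log2), though its dimmer probe sets gave -0.44 and -0.35. Aco1, the cytosolic aconitase and iron regulatory protein, was 1.26-fold lower (128 GFP-positive, 162 GFP-negative). Among the isocitrate dehydrogenases, the NAD-dependent subunits were lower, Idh3a by -0.21, Idh3b by -0.10 and Idh3g by -0.29 log2, and Idh2, the mitochondrial NADP-dependent form, was level at 0.06. One Idh3a probe set was far lower (74.6 GFP-positive, 146.8 GFP-negative, -0.98 log2) and another slightly higher. The counted probe sets of Idh3b and of Idh3g were all on the lower side.

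On their brightest probe sets the later steps of the cycle were nearly level. Ogdh, the E1 subunit of the 2-oxoglutarate complex, was at 0.07 log2, the succinyl-CoA ligase genes Suclg1 and Sucla2 at -0.08 and -0.04, and Fh1, fumarase, at 0.16. The malate dehydrogenases were the brightest genes of the cycle. Mdh1, in the cytosol, had signals of 4320.0 in GFP-positive cells against 4134 in GFP-negative cells (0.06), and Mdh2, in mitochondria, 4992 in GFP-positive against 4969 in GFP-negative cells (0.0067). All 3 counted probe sets of Mdh1 were higher, by up to 0.44 log2, while the 2 of Mdh2 split.

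Agreement between probe sets shows how far single values carry. Of the 20 members with at least 2 counted probe sets, 12 were lower in all of them (Slc2a1, Slc2a3, Aldoa, Tpi1, Gapdh, Pgd, Tkt, Pdha1, Pdk1, Cs, Idh3b and Idh3g), 2 were higher in all (Ldhb and Mdh1) and 6 were split (Pfkl, Pfkp, Pgk1, Dlat, Idh3a and Mdh2). Counted by probe set, 55 of 77 were lower (71.4%), against 51.8% of the 13758 counted probe sets of all genes. By group, 26 of 36 were lower in glycolysis (72.2%) and 7 of 9 in the pentose phosphate path (77.8%). In pyruvate dehydrogenase and the citrate cycle 22 of 32 were lower (68.8%). Probe sets with both signals above the floor scattered about the mean difference of their gene with a pooled standard deviation of 0.38 log2. This covers 3025 genes with several such probe sets. Of the 39 members, 30 lay within that distance of 0. Over the 20 members that could be used for it the same measure was 0.29 log2, and 24 of the 39 lay within that. This scatter holds no variation between mice or sorts. Of the 99 probe sets, 25 carry the suffix _s or _x, which marks possible matches to several transcripts.

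Other genes of the pathways did not share one direction. Of 25 further glycolysis genes 9 were counted, with 6 higher and 3 lower (33.3% lower) and a median of 0.16 log2. At least 1.5-fold higher were 2 of the 9, against 8.12% of all genes. Tigar, a phosphatase that diverts sugar from glycolysis, was 1.60-fold higher (175 GFP-positive, 109.7 GFP-negative) and Galm, which interconverts the forms of galactose, 1.59-fold higher (198 GFP-positive, 125 GFP-negative). Slc2a9, a urate and hexose carrier, was at -0.34 log2 with a further probe set at 0.44, and Bsg, the chaperone of the lactate carriers, at -0.31.

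Of 7 further pentose phosphate genes 6 were counted, 5 of them lower (83.3%, against 54.1% of all genes), and the median was -0.36 log2 against -0.04 over all genes. At least 1.5-fold lower were 2 of the 6, against 8.10% of all genes. H6pd, the enzyme of the endoplasmic reticulum that starts the path there, was 1.67-fold lower (154 GFP-positive, 258 GFP-negative), and Tktl1, a transketolase-like gene, at least 2.53-fold lower with a GFP-positive signal below the floor (67.7 GFP-positive, 175 GFP-negative). Prps2 and Rpe, of nucleotide precursor synthesis and pentose epimerisation, were at -0.37 and -0.36 log2. A further Rpe probe set was at 0.13. Of 23 further genes of pyruvate and citrate handling 16 were counted, 11 of them lower (68.8%), and the median was -0.13 with 0 past 1.5-fold. Got2, the mitochondrial aspartate aminotransferase, was 1.34-fold lower (1870.0 GFP-positive, 2497 GFP-negative) and Pdhx, a structural subunit of pyruvate dehydrogenase, 1.32-fold lower. Slc25a1, the citrate carrier, was at least 1.35-fold lower. Me2, a malic enzyme, was 1.32-fold higher, with further counted probe sets at 0.42 and -0.82 log2.

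Regulators of these pathways went both ways, 13 higher and 10 lower of 23, or 43.5% lower against 54.1% of all genes. At least 1.5-fold higher were 4 (17.4%, against 8.12% of all genes) and at least 1.5-fold lower 3 (13.0%, against 8.10%), in a list of few genes for which no test was run. Bnip3, a mitophagy gene, was 2.01-fold higher (242 GFP-positive, 120.6 GFP-negative). Vhl, which targets hypoxia-inducible factor for destruction, was 1.87-fold higher (241 GFP-positive, 129 GFP-negative) and Myc 1.70-fold higher (163 GFP-positive, 95.8 GFP-negative). Rptor, the mTORC1 scaffold, was at least 2.84-fold lower, with a GFP-positive signal below the floor (55.7 GFP-positive, 196 GFP-negative). Each of these 4 rests on 1 counted probe set. The others past 1.5-fold were named after their values were seen. Pik3cd, a phosphoinositide 3-kinase subunit, was 1.51-fold higher, with other counted probe sets at 0.63 (1 signal under the floor) and -0.22 log2. Ppargc1b, a coactivator of mitochondrial genes, was 1.62-fold lower, and Stk11, the kinase LKB1, 1.56-fold lower. Hif1a, named after its values were seen, was 1.19-fold lower (855 GFP-positive, 1017 GFP-negative), with its counted probe sets between -0.46 and 0.38 log2.

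**Figure D5:**
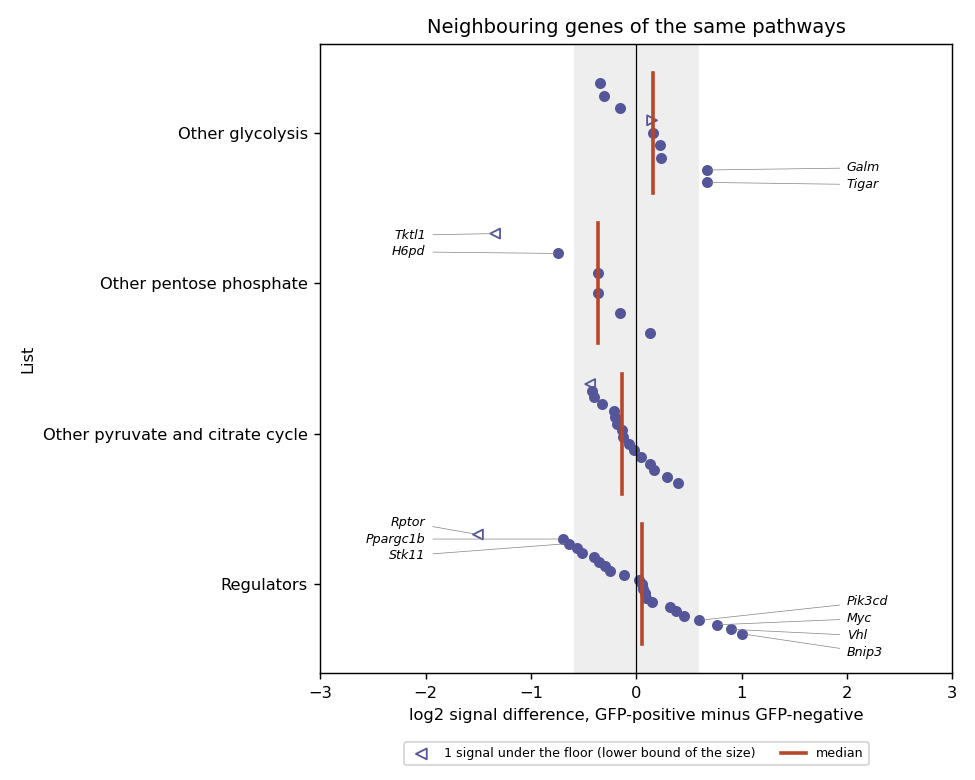
Log2 signal difference (x axis), GFP-positive minus GFP-negative, of counted genes in 4 lists of related genes (y axis), with the list median as a red bar, differences under 1.5-fold in grey, and open triangles where 1 signal lay under the floor. Medians lie between -0.36 for further pentose phosphate genes and 0.16 for further glycolysis genes, and the regulators spread most, from Rptor to Bnip3.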

How the data were processed

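Biotin-labelled cRNA of both populations was hybridised to Affymetrix Mouse Genome 430 arrays. The authors deposited 1 intensity per probe set and array, summarised with MAS5 per the submitters' processing notes; no detection calls were used. The deposited intensities had a 2% trimmed mean of 150.0 on both arrays, and no further scaling was applied. The platform annotation pairs 34958 probe sets with 1 symbol, 932 with several and 9211 with none. Symbols were checked through gene identifiers against RefSeq (34754 matched, 0 altered). The floor rests on 108 probe sets of 62 tissue-restricted genes, 6 of which still passed as counted genes. Control probe sets paired with 1 gene were kept, since Gapdh has no others. Of the counted genes, 538 have 1 signal under the floor, and their fold is a lower bound.

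With 1 array per group no test was run, and the number of arrays limits the precision. All 44 members are named, with both signals where the fold was at least 1.3 or the gene was among the brightest of its group, and mostly elsewhere too. From each list of other genes the 4 largest differences are named. Members and lists were chosen with earlier results of these data known. The steps were tested on simulated data. Python 3.11.15, pandas 2.3.3 and statsmodels 0.14.6 (loess, span 0.3) were used.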

Additional observations from a re-analysis of the deposited data

How the results depend on the processing

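The calculation was repeated under 11 alternatives: all probe sets averaged, probe sets above the floor averaged (chosen after seeing the data), no probe sets with suffix _s, _x or _a, floor doubled, halved or dropped, entry by either or by both signals, quantile normalization, loess, and centring on the median. Of 39 members, 34 kept their direction in every alternative that measured them, and Pgk1, Idh3a, Mdh2, Pfkm and Sucla2 did not. Members at least 1.5-fold higher numbered 1 with all probe sets averaged, and those at least 1.5-fold lower 0 with either averaging and 1, Pdk1, with the floor doubled. Without suffixed probe sets 2 members, Slc16a1 and Dld, were at least 1.5-fold higher, and Ldhb, with suffixed ones alone, was not measured. With quantile normalization Pdk1 missed 1.5-fold (-0.58 log2) and Aldoc passed it (-0.59). Without a floor 1 member, Slc16a3, passed 2-fold upwards. The glycolysis median ranged from -0.27 (without Gapdh, chosen after seeing the data) to -0.10 log2 (without suffixed probe sets), and that of the pentose phosphate genes turned to 0.14 without suffixed probe sets, on 3 genes. Among all genes, those at least 1.5-fold higher and lower numbered 344 and 337 with all probe sets averaged, 323 and 405 with the floor doubled, 1564 and 1253 with it halved, and 4796 and 3679 without it. At least 2-fold higher and lower were 63 and 62, 49 and 52, 557 and 376, and 3310 and 2422 genes in the same order, and 96 were higher with both signals required. On the gene's strand alone, ACGTG was in 28.6% of the 42 genes with a promoter against 21.9% of counted genes, and ACGTG or GCGTG in 66.7% against 51.2%. No paired analysis was possible because each group has 1 array. Aldoc, Dlat and Slc16a1 have low signals, close to the floor on 1 or both arrays.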
